A study of Mus musculus with 16 samples.

Results

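The skeletal myosin heavy chains were followed in gastrocnemius, a large calf muscle, of mice with 1 or 2 functional copies of Eif6. Their 6 genes, Myh1, Myh2, Myh4, Myh7, Myh3 and Myh8, were taken as every non-control probe that the array design names for one of them, out of 34650 gene names on the array. This gave 10 probes, of which 8 were bright enough to be tested. Each gene had at least 1 tested probe. Eif6 encodes an initiation factor that binds the large ribosomal subunit, and the series was made to compare the loading of mRNA on ribosomes between the genotypes.

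The mice were male C57BL6 littermates aged 8 to 16 weeks, 3 of genotype Eif6+/- (Het) and 3 of genotype Eif6+/+ (WT). No treatment is named. Each mouse gave total RNA of the whole muscle and RNA of pooled sucrose gradient fractions that hold transcripts with several ribosomes (polysomes). Monosome RNA, from transcripts with a single ribosome, was profiled in WT mice 1 and 2 and Het mice 1 and 3 only. The 6 groups of genotype and RNA kind therefore held 3, 3 and 2 arrays per genotype, 16 arrays in all. RNA came from all fibres and other cells of the muscle at once, so fewer fibres of a type and less RNA per fibre cannot be told apart.

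Myosin heavy chain is the motor protein of the thick filament, and the isoform a fibre carries largely sets how fast it contracts. Myh4, Myh1 and Myh2 encode the fast isoforms IIb, IIx and IIa, listed from the fastest and most glycolytic fibre to the slower and more oxidative one. Myh7 encodes the slow isoform of type I fibres and is also a heart myosin. Myh3 and Myh8, the embryonic and perinatal isoforms, are replaced after birth in most limb muscles and return in regenerating fibres. The mouse gastrocnemius is known as a mostly fast muscle.

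The fast and developmental genes lie side by side on chromosome 11, whereas Myh7 lies on chromosome 14. In mouse genome build GRCm38.p6 the RefSeq order along the plus strand of chromosome 11 was Myh3 (chr11:67078273-67102291), Myh2 (chr11:67171027-67197517), Myh1 (chr11:67200102-67224577), Myh4 (chr11:67237812-67260447) and Myh8 (chr11:67277124-67308634). Myh7 was at chr14:54970684-54994626 on the minus strand. Promoter sequences of all 6 genes were matched in the RefSeq table of the same build. The 250 bases before the start of 4 of these genes are printed 5′ to 3′ because they share 2 blocks of letters, marked by capitals:
Myh2, chr11:67170777-67171026, plus strand: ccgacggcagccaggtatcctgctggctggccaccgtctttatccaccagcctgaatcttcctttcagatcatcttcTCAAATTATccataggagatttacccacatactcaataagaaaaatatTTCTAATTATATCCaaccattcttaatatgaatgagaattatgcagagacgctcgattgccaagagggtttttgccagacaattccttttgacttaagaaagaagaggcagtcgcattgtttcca
Myh1, chr11:67199852-67200101, plus strand: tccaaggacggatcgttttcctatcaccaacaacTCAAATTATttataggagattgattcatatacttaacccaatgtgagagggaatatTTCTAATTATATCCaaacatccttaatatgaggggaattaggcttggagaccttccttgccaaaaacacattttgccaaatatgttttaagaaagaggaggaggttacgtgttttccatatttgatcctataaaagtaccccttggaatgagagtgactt
Myh4, chr11:67237562-67237811, plus strand: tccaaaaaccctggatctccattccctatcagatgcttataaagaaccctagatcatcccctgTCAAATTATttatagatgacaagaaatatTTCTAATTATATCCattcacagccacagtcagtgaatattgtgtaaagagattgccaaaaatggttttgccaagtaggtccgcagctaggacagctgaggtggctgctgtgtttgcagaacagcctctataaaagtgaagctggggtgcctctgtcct
Myh8, chr11:67276874-67277123, plus strand: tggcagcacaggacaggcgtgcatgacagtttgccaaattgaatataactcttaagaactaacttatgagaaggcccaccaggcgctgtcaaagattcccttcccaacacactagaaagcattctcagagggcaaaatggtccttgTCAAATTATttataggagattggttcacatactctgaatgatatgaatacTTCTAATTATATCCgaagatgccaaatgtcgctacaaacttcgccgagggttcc

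The longer block, TTCTAATTATATCC, stood in this window of Myh1, Myh2, Myh4 and Myh8 and of no other of 27025 genes (4 of 32851 promoter entries, 0.0122%, both strands searched). It began 160 bases before the start of Myh1, 158 before that of Myh4, 125 before that of Myh2 and 54 before that of Myh8. The shorter block, TCAAATTAT, preceded it in the same 4 genes, with 47, 20, 39 and 41 bases between the blocks in Myh1, Myh4, Myh2 and Myh8, and stood in 57 entries of 54 genes in all (0.174%). Neither block was in the window of Myh3 or Myh7. TATAAA was in the last 50 bases before the start of Myh3, Myh1 and Myh4, and in 2.63% of all promoter entries. The blocks were found by comparing the members' own windows, so their sharing is a description, and no binding was measured.

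Eif6 itself checked the genotype labels. Its brighter probe read 9.26 to 9.95 in WT and 8.51 to 8.70 in Het whole muscle (log2 signal), with Het lower by 0.92 on the log2 scale (SE 0.25, limma unadjusted p = 0.0036, adjusted p = 0.36). The difference was -1.31 in polysome and -1.82 in monosome RNA. All 8 skeletal muscle markers, among them the muscle creatine kinase Ckm and the skeletal actin Acta1, and all 9 fast fibre markers were well above background on every array. Per array 23.5% to 45.9% of spots passed the scanner's test for signal well above background and none was saturated, and the 75th percentile of signal ran from 12.7 to 150 scanner units, with all Het whole-muscle arrays (13.5 to 33.0) dimmer than all WT ones (42.3 to 150). The arrays WT polysome 2 and WT monosome 2 stood apart from the other 14 in how signal was spread along transcripts, and many of the results are also given without them.

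Levels are given as log2 of the processed signal. Those of whole muscle and polysome come from 12 arrays normalized together, and those of monosome RNA from all 16. A level of one probe cannot be set against that of another, so isoforms are compared only by how each moved between arrays. A difference between genotypes was called when it exceeded 1 on the log2 scale with an unadjusted p under 0.05, the threshold of the study's methods, and a difference between RNA kinds when it exceeded 1 with an adjusted p under 0.05. Where leaving out a mouse or an array or keeping a single slide left 1 array of a genotype and RNA kind, that array was assumed to vary like those of the other groups.

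No myosin heavy chain gene passed these thresholds in any of the 8 comparisons of the main fits. The main fits with monosome arrays compared groups without pairing the arrays of a mouse. With the mouse as a block Myh7 was called between monosome and whole muscle and between polysome and monosome RNA. In whole muscle RNA 0 of the 6 genes were called against 5.63% of the 19812 tested probes, in polysome RNA 0 against 5.75%, and in monosome RNA 0 against 28.6% of 20250. The arrays of the 2 genotypes overlapped for all 6 genes in whole muscle and polysome RNA, where 13.5% and 21.8% of probes did not overlap. The widest differences between genotypes, those of embryonic Myh3, also had the widest errors. For the adult isoforms the 95% intervals of the whole-muscle difference reached at most from -1.12 to 1.28, and a difference of 1 lay inside the interval of each of the 4.

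Myh4, the IIb isoform, read 16.84, 17.33 and 17.54 in whole muscle of WT mice 1 to 3 and 17.47, 17.67 and 17.81 in Het mice 1 to 3. The ranges overlapped, with 2 Het arrays above all WT arrays. The difference was 0.42 (1.34-fold, 95% interval 0.80 to 2.23-fold, limma adjusted p = 0.81). In polysomes Myh4 read 17.51, 16.17 and 16.98 in WT and 17.19, 16.71 and 17.30 in Het, again overlapping, with a difference of 0.18 (SE 0.34). Without WT polysome 2, the lowest array, that difference was -0.18. On monosomes the values were 17.03 and 15.98 in WT and 17.03 and 17.10 in Het, where the upper WT and the lower Het value were equal to 2 decimals. The difference of 0.56 (SE 0.47, adjusted p = 0.39) was 1.09 without WT mouse 1 and 0.04 without WT mouse 2, each with 1 WT array, so the WT array kept decided it. In the authors' processed table the whole-muscle difference was -0.21. Over the groups the mean order on the 16-array scale was Het whole muscle 17.43, Het monosome 17.06, WT whole muscle 16.98, Het polysome 16.79, WT polysome 16.60 and WT monosome 16.50. Apart from the first pair, neighbours in that order differed by less than the wider of their 2 SDs, which ran from 0.05 to 0.74 over the groups.

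Myh1, the IIx isoform, had nearly the same mean in whole muscle of both genotypes. It read 13.86, 13.96 and 13.59 in WT and 14.02, 14.06 and 13.39 in Het, and the difference was 0.02 (1.01-fold, 95% interval 0.46 to 2.23-fold). On polysomes it read 14.60, 12.09 and 14.01 in WT and 13.93, 14.21 and 13.62 in Het. WT polysome 2 was the lowest array by more than 1, and the difference of 0.35 (SE 0.52) turned to -0.39 without it. Monosome values were 13.44 and 12.50 in WT and 12.63 and 12.43 in Het, which overlapped (difference -0.44, SE 0.62, adjusted p = 0.61). On the 16-array scale the group means ran in the order Het polysome 13.63, Het whole muscle 13.54, WT whole muscle 13.52, WT polysome 13.27, WT monosome 12.97 and Het monosome 12.53, and no neighbours differed by more than the wider of their SDs.

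Myh2, the IIa isoform, read 13.70, 14.59 and 13.96 in WT and 14.44, 14.10 and 14.13 in Het whole muscle, with a difference of 0.14 (1.1-fold, 95% interval 0.58 to 2.07-fold). Its polysome values were 14.33, 12.57 and 13.88 in WT and 14.61, 13.97 and 14.004 in Het. The difference of 0.60 (1.52-fold, SE 0.42 on the log2 scale, limma adjusted p = 0.47) was the largest increase among the 6 genes in polysome RNA, and it was 0.09 without WT mouse 2. On monosomes Myh2 read 13.07 and 13.005 in WT and 12.99 and 12.60 in Het. Those arrays did not overlap, as was true of 50.4% of probes tested there, and the difference of -0.24 was smaller than its SE of 0.48. Its group means ran from Het whole muscle (13.93) over Het polysome (13.90), WT whole muscle (13.79), WT polysome (13.30) and WT monosome (13.04) to Het monosome (12.79) on the 16-array scale, again with no neighbours further apart than the wider SD.

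Myh7, the slow isoform, spread widely among WT mice in whole muscle. There it read 11.23, 12.24 and 10.09 in WT and 11.11, 11.07 and 11.70 in Het, so that the highest and the lowest array were both WT (difference 0.11, SE 0.53). Its polysome values, 11.30, 10.43 and 9.76 in WT and 10.63, 11.002 and 11.62 in Het, overlapped too (0.59, SE 0.53, adjusted p = 0.57). Monosome values were 9.88 and 9.89 in WT and 9.16 and 10.10 in Het (-0.25, SE 0.64). The order of its group means on the 16-array scale was Het whole muscle 11.01, WT whole muscle 10.90, Het polysome 10.80, WT polysome 10.21, WT monosome 9.88 and Het monosome 9.63, with neighbours within the wider SD. Within the slides the polysome difference was -0.23 on slide 1, with 1 Het array, and 1.55 on slide 2, with 1 WT array. Of 8 slow fibre markers, such as the slow troponins Tnnt1 and Tnni1, 0 were called in either direction in whole muscle or polysome RNA (medians 0.13 and 0.15, against -0.03 and 0.05 over all tested probes). Of 9 fast fibre markers 0 were called in whole muscle (median -0.09), and 2 were called higher and 0 lower in polysome RNA (median 0.16), where 4.2% of all probes were called higher. The 2, named here after their values were seen, were the fast calcium pump Atp2a1 (1.61, unadjusted p = 0.020, adjusted p = 0.28) and the calcium-binding calsequestrin Casq1 (1.12, unadjusted p = 0.0077, adjusted p = 0.25). Without WT polysome 2 these were 1.98 and 1.31, and the fast light chain Mylpf (1.60) was called too, while of the slow fibre markers the slow tropomyosin Tpm3 was called lower (-1.05, unadjusted p = 0.018, adjusted p = 0.27).

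The balance of slow to fast isoform was taken as the Myh7 level minus the Myh4 level of an array. It ranged from -7.45 to -5.09 over the WT and from -6.60 to -6.11 over the Het whole-muscle arrays, with the Het values inside the WT range. The mean moved by -0.31 in whole muscle (exact 2-sided permutation p = 0.8, n = 3 per genotype) and by 0.41 in polysomes (exact p = 0.5). The balance of Myh2 to Myh4 moved by -0.28 (exact p = 0.5) in whole muscle and by 0.42 (exact p = 0.3) in polysomes. In the authors' processed table all 4 changed sign (0.35, -0.19, 0.25 and -0.09). After adjustment over these 4 comparisons the p-values were 0.67 to 0.8, and 3 against 3 arrays cannot give an exact p below 0.1. The single values rest on 2 probes each, and only their movement between arrays has a meaning.

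**Figure D1:**
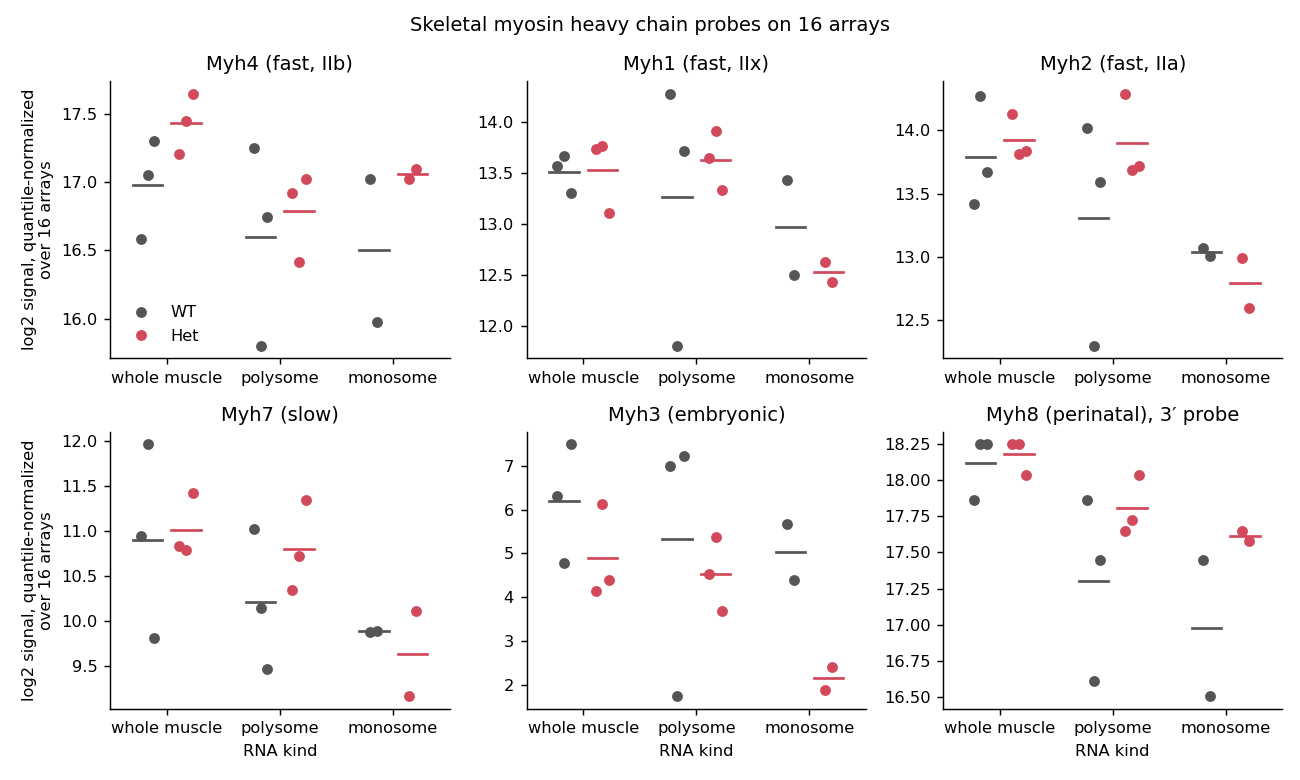
Level of the probe that stands for each myosin heavy chain gene on every array (points) with the group mean (line), as log2 signal normalized over all 16 arrays, by RNA kind and genotype; each panel has its own vertical axis. Genotypes overlapped for every gene in whole muscle and polysome RNA, WT polysome 2 was the lowest polysome array of Myh4, Myh1, Myh2, Myh3 and Myh8, and Myh3 was lowest on the Het monosome arrays and WT polysome 2.

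Embryonic Myh3 was close to background. Its brighter probe, at chr11:66915724-66915783 of build mm9, was well above background on 10 of 16 arrays. A second probe, described below, was well above background on every WT whole-muscle and every Het polysome array. The brighter probe entered the test through WT whole muscle, its highest group and its only one with every array well above background. That choice favours lower values elsewhere. In whole muscle the brighter probe read 6.57, 5.01 and 7.78 in WT and 4.36, 6.39 and 4.62 in Het. On polysomes it read 7.27, 1.79 and 7.52 in WT and 4.74, 5.62 and 3.88 in Het. Both genotypes spanned more than 1 on the log2 scale and overlapped. The Het minus WT difference was -1.33 in whole muscle (SE 1.33, limma p = 0.34, exact permutation p = 0.2) and -0.78 in polysomes (SE 1.33). Without WT mouse 2 the differences were -2.06 in whole muscle (limma adjusted p = 0.22) and -2.65 in polysome RNA (adjusted p = 0.21). Both passed the call there, which uses the unadjusted p. For the brighter probe WT polysome 2, Het polysome 3 and Het whole muscle 3 were not well above background, so neither these differences nor the loading of Myh3 have an exact size. On the 16-array scale its group means ran from WT whole muscle (6.19) over WT polysome (5.32), WT monosome (5.03), Het whole muscle (4.89) and Het polysome (4.52) down to Het monosome. Neighbours above the last step lay within the wider of their SDs.

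On monosomes the brighter Myh3 probe was well above background on 1 of 2 WT arrays and 0 of 2 Het arrays, so its Het level is only a bound. The WT values of 5.67 and 4.40 had a mean of 5.03, the measured Het mean was 2.15 and the bound, from the lowest signals well above background, was 3.92. The WT mean was 2.17-fold above that bound (adjusted p of 0.18 for the measured difference in the limma fit), but 1 of its 2 values was itself not well above background, so no lower limit of the difference is given. Of the monosome arrays, a second Myh3 probe, at chr11:66915107-66915166 in mm9, was well above background on WT monosome 1 and Het monosome 3. It moved with the first over the 16 arrays (Pearson r = 0.90, a description over arrays that share mice), and gave differences of -1.72, -0.76 and -0.80 in whole muscle, polysome and monosome RNA. Markers of immune cells moved the same way. All 6 tested of 7 listed were lower in Het in each RNA kind (median -1.33, -0.92 and -1.35), with 3, 0 and 1 called, beside 3.64%, 1.55% and 11.5% of all probes called lower. Without the 2 arrays that stood apart, 2 were called on polysomes (Cd68 and Csf1r) and 1 on monosomes (Cd68). Those called with all arrays, named after their values were seen, were the lysozyme Lyz2 (-2.69), the antigen-presenting H2-Aa (-1.15) and the complement gene C1qa (-1.58) in whole muscle and C1qa (-1.84) on monosomes. The mean level of the 6 on the 16-array scale was 6.13 to 8.78 over the WT and 6.04 to 6.29 over the Het whole-muscle arrays. Per array 4 to 6 of them were well above background, and their part in the Myh3 values was not tested.

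Perinatal Myh8 had 4 probes, spread from near the 5′ to near the 3′ end of the gene. Those at transcript positions 2202 and 2970, designed on other transcript models, were well above background on 0 of 16 arrays and were not tested. The 3′ probe was among the brightest on the array, ranking between 2 and 36 of 55681 probe names, and at that brightness several arrays carry the same value because quantile normalization gives tied ranks 1 number. The probe at the 3′ end and the Myh3 probe in its coding part are shown because the 2 genes are alike there. Capitals mark bases that are identical when the Myh8 probe is laid 12 bases into the Myh3 probe:
Myh8 3′ probe, chr11:67121925-67121984 (mm9), plus strand: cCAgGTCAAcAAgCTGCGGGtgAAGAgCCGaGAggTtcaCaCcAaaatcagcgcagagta
Myh3 probe, chr11:66915107-66915166 (mm9), plus strand: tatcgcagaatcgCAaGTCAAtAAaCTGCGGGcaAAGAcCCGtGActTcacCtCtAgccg
Myh8 5′ probe, chr11:67093475-67093534 (mm9), plus strand: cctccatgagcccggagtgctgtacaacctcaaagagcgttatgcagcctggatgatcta

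Of the 48 overlaid bases of the 2 upper probes 29 were identical (60.4%). The same stretch of the other members was not analysed here, and which transcripts bind the 3′ probe was not tested. The 5′ probe lies 5460 bases upstream of it in the transcript.

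The 3′ probe of Myh8 read 18.01, 18.35 and 18.35 in WT and 18.35, 18.35 and 18.16 in Het whole muscle (0.05, SE 0.28). Scaled to the 75th percentile of each array instead, it was called higher in Het (1.11, limma unadjusted p = 0.0085, adjusted p = 0.48). On polysomes it read 18.01, 16.86 and 17.67 in WT and 17.81, 17.89 and 18.16 in Het. Het was higher by 0.44 (1.36-fold, limma adjusted p = 0.44), and by 0.11 without WT mouse 2. Monosome values of 17.45 and 16.51 in WT lay below 17.65 and 17.58 in Het, at a difference of 0.64 (SE 0.40, adjusted p = 0.26). The difference was 1.11 without WT mouse 1 and 0.17 without WT mouse 2, each against 1 WT array. Which WT monosome array was kept thus decided the value, as it did for Myh4. The group means on the 16-array scale were Het whole muscle 18.18, WT whole muscle 18.12, Het polysome 17.80, Het monosome 17.61, WT polysome 17.31 and WT monosome 16.98, and among neighbours only the second and the third differed by more than the wider of their SDs.

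The 5′ probe of Myh8 gave a different picture. In whole muscle it read 11.24, 11.49 and 11.18 in WT and 9.90, 10.48 and 11.37 in Het (-0.72, SE 0.68), and on polysomes 9.25, 12.32 and 10.23 in WT and 9.87, 10.45 and 11.44 in Het (-0.01). On monosomes it read 8.15 and 11.08 in WT and 8.41 and 9.52 in Het (-0.65, SE 0.998). WT polysome 2 and WT monosome 2 were its highest arrays of those groups, where they were the lowest of the 3′ probe. Over 16 arrays the 2 probes correlated at r = -0.13, and over the 14 arrays without these 2 at r = 0.62, as descriptions.

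Within Myh8 the 5′ minus 3′ difference was -9.29 to -6.88 on 14 arrays. It was -4.57 on the second WT polysome array and -5.43 on the second WT monosome array. The same shift appeared outside the gene. Over 1185 transcripts with tested probes at least 500 bases apart, the median 5′ minus 3′ difference was 0.60 and 0.81 on these arrays and -1.35 to -0.79 on the others. All members but the 5′ probe of Myh8 are represented by probes near the 3′ end, starting at transcript position 5779 or later. The WT polysome and monosome values of all 6 genes thus include 1 array each with this shift, and its part in them was not tested.

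**Figure D2:**
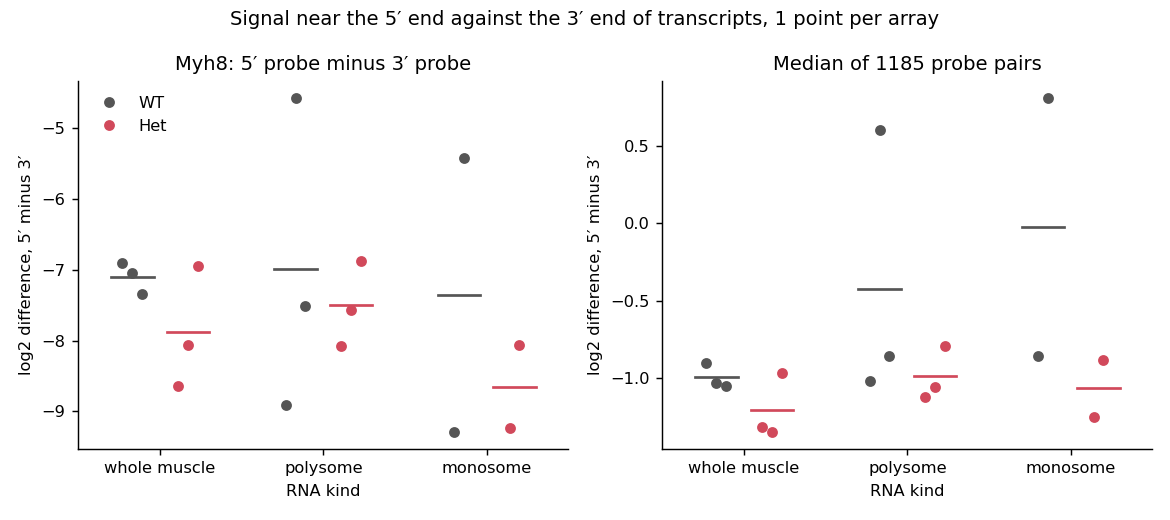
Log2 difference between a probe near the 5′ end and one near the 3′ end of the same transcript, 1 point per array with the group mean as a line, for Myh8 (left) and as the median of 1185 transcripts (right). The second WT polysome array (-4.57 and 0.60) and the second WT monosome array (-5.43 and 0.81) lay above the other 14 arrays in both panels.

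As a list, the members were described by counts and medians. In whole muscle 5 of 6 differences were above 0 (median 0.08, all tested probes -0.03), in polysome RNA 5 of 6 (median 0.40, all 0.05), and in monosome RNA 2 of 6 (median -0.25, all 0.10). On monosomes the arrays of the 2 genotypes did not overlap for 4 of 6 genes, against 50.4% of probes.

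**Figure D3:**
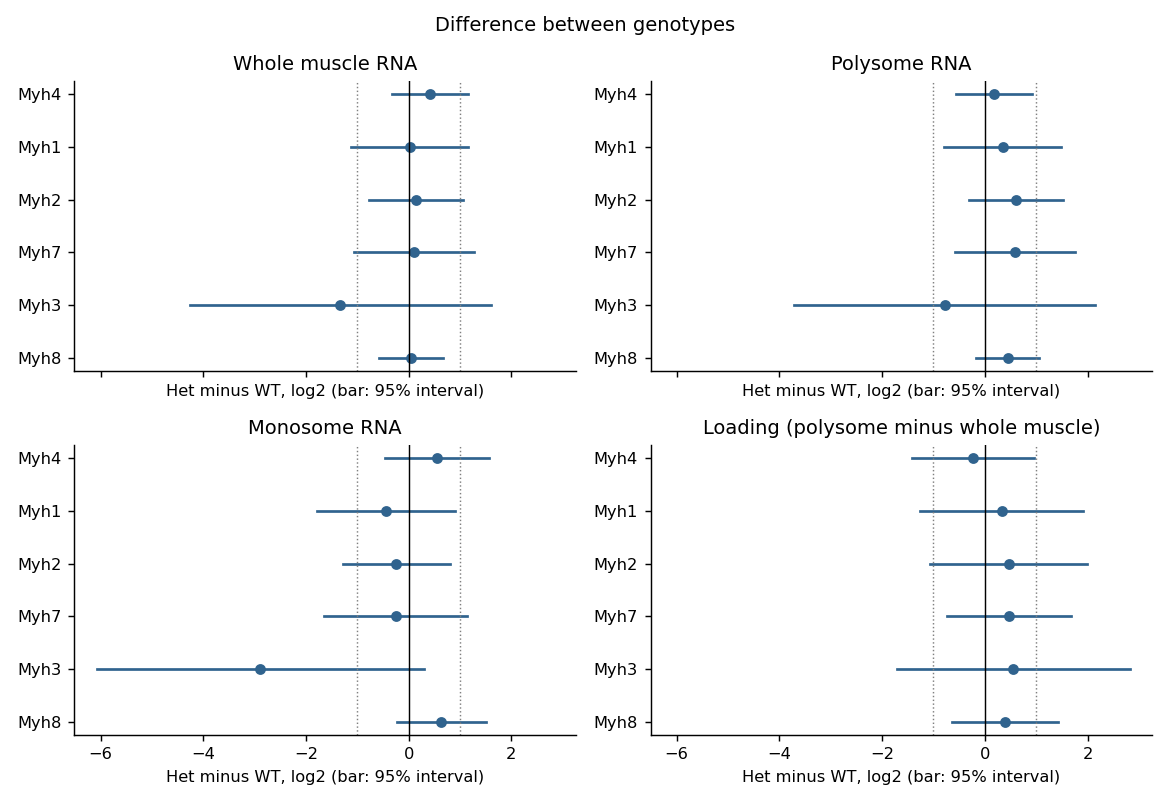
Het minus WT difference of each gene (point) with its 95% interval (bar) from the limma fit, on the log2 scale, in whole muscle, polysome and monosome RNA and for loading; dotted lines mark 1 and -1. Every interval includes 0, and those of Myh3 are the widest.

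Loading on polysomes, the question of the series, was taken for each mouse as the log2 polysome minus the log2 whole-muscle level. For Myh7 it averaged -0.69 ± 0.99 in WT and -0.21 ± 0.23 in Het (SD, n = 3 each), for Myh2 -0.49 ± 1.37 and -0.03 ± 0.18, and for Myh1 -0.24 ± 1.43 and 0.09 ± 0.16. The spread among WT mice was wider than that among Het mice for each of these genes, and WT mouse 2 had the lowest ratio of Myh1 (-1.87) and Myh2 (-2.02). Het minus WT was 0.55 for Myh3 (SE 0.96), 0.48 for Myh7, 0.46 for Myh2, 0.39 for Myh8 and 0.33 for Myh1, the last 4 each smaller than its SE of 0.44 to 0.67. For Myh4 the mean of the Het mice was -0.59 ± 0.34 and that of the WT mice -0.35 ± 0.93, so that Het was lower by -0.24. Of the 6 genes 0 were called, against 13.9% of tested probes (member median 0.43, all probes 0.17). Without WT mouse 2 the differences of Myh1, Myh2, Myh3 and Myh7 turned to -0.49, -0.30, -0.59 and -0.08, and that of Myh8 was 0.01. Scaling arrays to their 75th percentile turned the difference of Myh8 to -0.90, and the authors' table that of Myh4 to 0.99. No mouse had both its arrays on the same slide, so the within-slide values of Myh7, -1.53 on slide 1 and 2.17 on slide 2, set different mice against each other, with 1 array in some groups.

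Markers also moved for loading, where 6.75% of all probes were called higher and 7.19% lower in Het. Of the skeletal muscle markers 3 of 8 were called higher, Ckm, Acta1 and Des (median 0.41), and of the fast fibre markers 2 of 9, Atp2a1 (2.80) and Casq1 (1.67, median 0.34). Red blood cell markers were called lower in 3 of 5 cases, Hba-a1, Hba-a2 and Alas2 (median -1.40). Of the other myosins 2 of 6 were called higher, Myh11 (1.47) and Myh9 (1.36, median 0.51), and of the fibre type regulators 3 of 14, Tbx15, Eya4 and Sox6 (median 0.23). Slow fibre markers and thick filament partners had 0 of 8 and 0 of 15 called (medians 0.01 and -0.01). Without WT polysome 2 the skeletal muscle markers again had 3 called higher, the fast fibre markers 3, the regulators 2 and the other myosins 1, and slow fibre markers and thick filament partners 1 each. The red blood cell markers then had 1 called lower and 1 higher (median -0.76). These genes were named after their values were seen, and the part of the markers in the myosin loading was not tested.

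Polysome levels were compared with whole muscle within each genotype on the same ratios. In WT all 6 genes had a mean below 0 (-0.93 for Myh3 to -0.24 for Myh1, median -0.59, all tested probes 0.04), and 0 were called against 15.8% of probes. The Myh3 value includes WT polysome 2, which was at background for it, and has no exact size. Myh8 was closest to the threshold in WT, at -0.73 (SE 0.31, limma adjusted p = 0.13). In the authors' processed table Myh8 (-1.10, adjusted p = 0.0035) and Myh4 (-1.18, adjusted p = 0.0042) were called in WT. Without WT mouse 2 the WT means of Myh4, Myh1, Myh2 and Myh3 were above 0 (0.06 to 0.58). In Het the means ran from -0.59 for Myh4 to 0.09 for Myh1 (median -0.27, all 0.13), with 0 called against 6.52%. Myh4 (-0.96 to -0.29, adjusted p = 0.31) and Myh7 (-0.48 to -0.07) were below 0 in 3 of 3 Het mice. The 3′ probe of Myh8 had -0.54 and -0.46 in Het mice 1 and 2. In Het mouse 3 it carried the same normalized value, 18.16, on both arrays. In WT, 3 of 9 fast fibre markers and 2 of 8 skeletal muscle markers were called lower on polysomes, beside 9.05% of all probes, and 2 slow fibre, 2 adipocyte, 2 fibroblast, 2 immune and 2 red blood cell markers were called higher, beside 6.71%. Without WT polysome 2 these counts were the same for the first 5 lists, while 0 immune and 0 red blood cell markers were called higher and 1 immune marker, Lyz2, was called lower. In Het no skeletal, fast fibre or red blood cell marker was called, and 1 slow fibre, 2 adipocyte and 1 immune marker were called higher, beside 2.82% of all probes. The part of these markers in the myosin ratios was not tested.

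The 6 genes were lower in monosome RNA than in whole muscle, without passing the call. The monosome minus whole-muscle difference, averaged over genotypes, was -0.43 for Myh4, -0.78 for Myh1, -0.85 for Myh8, -0.94 for Myh2, -1.20 for Myh7 and -1.95 for Myh3. The Myh3 value has no exact size. For its brighter probe the 2 Het monosome arrays, WT monosome 2 and Het whole muscle 3 were not well above background. All 6 were below 0 (median -0.90), as were 53.5% of the 20250 tested probes (median -0.09). None passed both parts of the call, which 17.5% of probes did. Myh2 (1.92-fold lower on monosomes, SE 0.31, adjusted p = 0.044) and the 3′ probe of Myh8 (1.80-fold lower, SE 0.26, adjusted p = 0.034) passed the adjusted p alone, like the 14.2% of probes that were lower at that p. The 5′ probe of Myh8 (-1.36, limma adjusted p = 0.12) did not pass it, and Myh7 had an adjusted p of 0.051. With the mouse as a block Myh7 was called (-1.47, adjusted p = 0.0098). In the authors' processed table Myh8 (-1.30), Myh4 (-1.20), Myh7 (-1.18) and Myh2 (-1.02) were called, and with 75th percentile scaling Myh7 (-1.46) and Myh2 (-1.19).

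Markers of the muscle fibre and of blood moved in the same comparison. Of the 8 skeletal muscle markers 4 were called lower on monosomes, Acta1, Des, Ckm and Ttn, and 1 higher, the calcium channel Cacna1s (median -1.01). All 9 fast fibre markers were below 0 with 3 called, Atp2a1, Casq1 and Mylpf (median -0.47), and 1 of 8 slow fibre markers was called lower, the slow calcium pump Atp2a2 (-1.47, median -0.18). The 5 red blood cell markers were all above 0 with 1 called, Hba-a2 (median 0.87). Of all probes 10.3% were called lower and 7.17% higher. On the scale of all 16 arrays, the mean level of the 8 skeletal muscle markers was 12.61 to 13.22 on the monosome arrays and 13.44 to 13.98 in whole muscle, without overlap. That of the red blood cell markers was 10.38 to 12.24 and 9.82 to 10.75. Without WT monosome 2 and WT polysome 2, Atp2a2 was not called (-0.85) and the slow troponin Tnni1 was (-1.89, adjusted p = 0.0031), 5 skeletal muscle markers were called lower and 0 higher, and the skeletal, fast and red blood cell medians were -1.15, -0.55 and 0.51. The genes called here were named after their values were seen, and the part of these markers in the myosin values was not tested.

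The values of Myh2 and of the 3′ probe of Myh8 did not overlap between the 4 monosome and the 6 whole-muscle arrays, as was the case in this direction for 11.5% of probes. Myh2 read 12.60 to 13.07 on monosomes and 13.42 to 14.27 in whole muscle on the 16-array scale. That Myh8 probe read 16.51 to 17.65 and 17.86 to 18.25. Leaving out 1 mouse at a time moved the adjusted p of Myh2 between 0.021 and 0.19 and that of Myh8 between 0.0025 and 0.18. It was above 0.05 for both genes without WT mouse 3 and without Het mouse 1, 2 or 3. Myh2 (-1.05), Myh8 (-1.15) and Myh7 (-1.47) were each called with 1 mouse left out, the first 2 without WT mouse 1 and with 1 WT monosome array, and Myh7 without WT mouse 3. The 3′ probe of Myh8 was called in WT alone (-1.14, limma adjusted p = 0.033), a value that includes WT monosome 2, and not in Het alone (-0.56, adjusted p = 0.54). Its difference between the genotypes was 0.58 (SE 0.52, adjusted p = 0.48). The 5′ probe of Myh8 had -1.40 in WT (adjusted p = 0.23) and -1.32 in Het (adjusted p = 0.57), and was not called.

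Polysome levels were above monosome levels for 5 of the 6 genes, as for 57.3% of probes, and under 75th percentile scaling those of Myh8 (-0.03) and Myh4 (0.05) changed sign. The difference was 1.33 for Myh3, 0.75 for Myh7, 0.70 for Myh1, 0.68 for Myh2, 0.26 for Myh8 and -0.09 for Myh4 (median 0.69, all probes 0.20), and 0 were called against 17.2%. The smallest adjusted p was 0.11, for Myh2. With the mouse as a block Myh7 was called (1.02, adjusted p = 0.026). The value of Myh3 has no exact size. For its brighter probe the 2 Het monosome arrays, WT monosome 2, WT polysome 2 and Het polysome 3 were not well above background. Among the markers, 3 of 5 adipocyte genes (Cfd, Fabp4 and Adipoq, median 1.61), 1 of 6 immune genes (C1qa, all 6 above 0) and 1 of 8 slow fibre genes (Casq2, all 8 above 0, median 0.98) were called higher on polysomes, beside 10.9% of all probes. Of the 8 skeletal muscle markers 2 were called higher and 1 lower, of the 9 fast fibre markers 1 higher, and the 5 red blood cell markers were below 0 with 0 called. Without the 2 arrays that stood apart 3 adipocyte, 2 immune and 3 slow fibre genes were called higher. The part of these markers in the myosin values was not tested. The difference between genotypes in this contrast and in the monosome to whole-muscle contrast passed for 0 of the 6 genes (limma adjusted p 0.48 to 0.92). These contrasts share arrays with each other, so their values are not separate evidence.

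**Figure D4:**
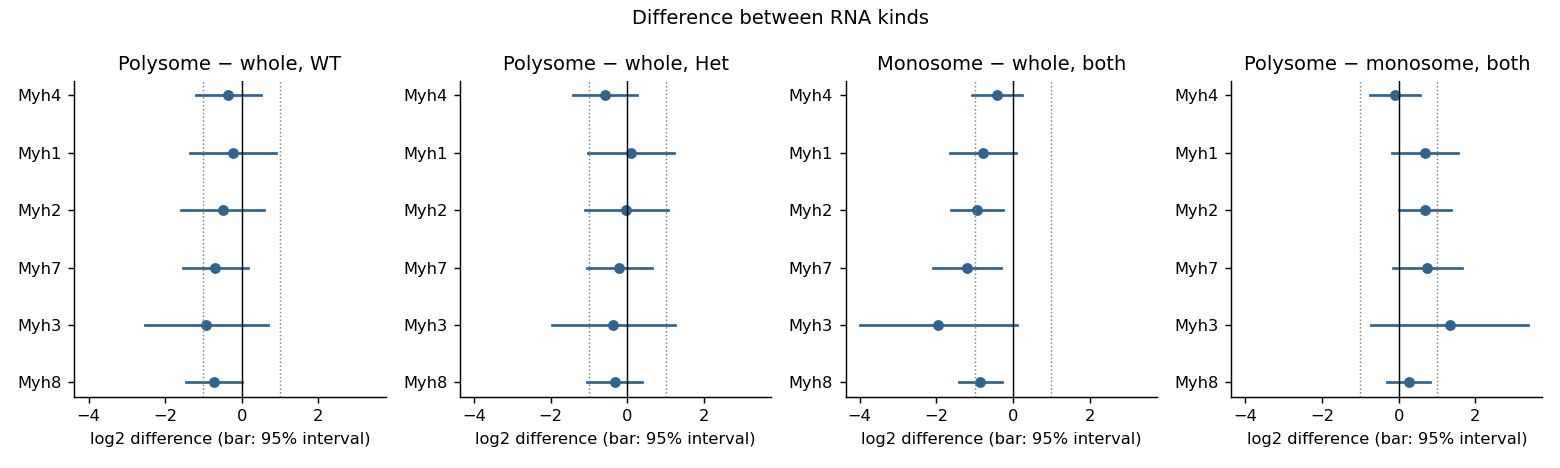
Difference between RNA kinds for each gene (point) with its 95% interval (bar), on the log2 scale, for polysome minus whole muscle in each genotype, monosome minus whole muscle and polysome minus monosome over both genotypes; dotted lines mark 1 and -1. All monosome minus whole muscle points lie below 0, and the intervals of Myh2, Myh7 and Myh8 leave out 0 there.

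Between the probes of Myh3 and Myh8 on chromosome 11, 1 probe of another name was found. It belongs to 2310065F04Rik, a long non-coding RNA that RefSeq also lists as linc-Myh and places on the opposite strand between Myh3 and Myh2 (chr11:67112461-67120080, GRCm38, minus strand, 7620 bases). RNA of this locus is known as part of the fast myosin programme. Its probe, at chr11:66925963-66926022 of mm9, was well above background on 16 of 16 arrays. It was higher in Het in all 3 RNA kinds without overlap, which was true of no coding member. In whole muscle the highest WT and the lowest Het array nearly met, at 7.489 and 7.497. On monosomes Myh4 and the 3′ probe of Myh8 were also higher in Het without overlap.

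In whole muscle 2310065F04Rik read 6.53 to 7.49 in WT and 7.50 to 7.93 in Het, and on polysomes 6.83 to 7.11 and 7.42 to 7.71. Of all tested probes 5.09% and 13.2% were higher in Het without overlap in these RNA kinds. The differences of 0.68 (SE 0.27, limma unadjusted p = 0.028, adjusted p = 0.54) and 0.67 (SE 0.27, unadjusted p = 0.030, adjusted p = 0.29) did not reach the call of 1. On monosomes it read 6.40 and 5.59 in WT and 7.93 and 7.89 in Het. There it was called higher, by 1.91 (SE 0.36, adjusted p = 0.042), beside 17.2% of all probes called higher and 26.8% higher without overlap. The difference between genotypes was larger on monosomes than in whole muscle by 1.24 (SE 0.47, unadjusted p = 0.020, adjusted p = 0.17), which did not pass. With 1 mouse left out at a time, the monosome call held each time, in part with 1 array of a genotype. On slide 1, which holds 1 monosome array of each genotype, the difference between these 2 arrays was 1.53. Without WT monosome 2 and WT polysome 2 it was 1.51 (unadjusted p = 0.0016, adjusted p = 0.11).

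**Figure D5:**
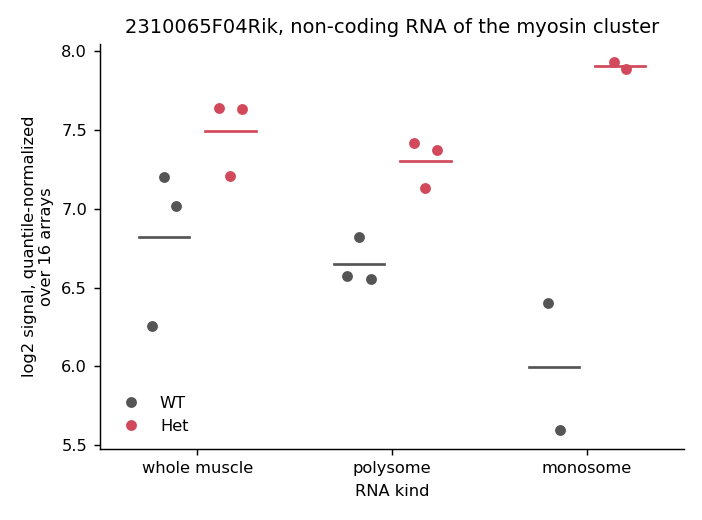
Level of the 2310065F04Rik probe on every array (points) with the group mean (line), as log2 signal normalized over 16 arrays, by RNA kind and genotype. The Het arrays lie above the WT arrays of the same RNA kind in all 3 kinds, with group means of 7.91 and 5.998 on monosomes.

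The remaining myosin heavy chains served as a comparison. Of 8 such genes 6 were tested. In whole muscle 1 of the 6 was called lower and 0 higher (median -0.0025), beside 3.64% and 1.99% of all probes. That gene was smooth muscle Myh11 (-1.33, SE 0.32, limma unadjusted p = 0.0017, adjusted p = 0.31). Its call was lost with normexp background correction (-0.48), in the authors' table (-0.49) and on slide 1 alone (-0.82). Non-muscle Myh9 had -0.73 (adjusted p = 0.76) and non-muscle Myh10 0.42 (adjusted p = 0.86). Between polysome and monosome RNA 2 of 6 were called higher on polysomes and 0 lower (median 0.67), beside 10.9% and 6.3% of all probes. These were Myh11 by 1.74 (adjusted p = 0.0053) and the cardiac isoform Myh6 by 1.19 (adjusted p = 0.015). Myh7b had 0.78 (adjusted p = 0.14), and with the mouse as a block it was called (1.01, limma adjusted p = 0.040). Myh11 missed the call without Het mouse 1 (1.18, adjusted p = 0.063), and fell to 0.54 with normexp and 0.58 in the authors' table. Myh6 missed it without WT mouse 2 (0.94), WT mouse 3 (1.12) or Het mouse 1 (0.97), and under 10 of 17 alternatives in all, down to 0.20 with normexp and 0.42 in the authors' table. Without the 2 arrays that stood apart, only Myh11 of the 6 was called.

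On monosomes against whole muscle all 6 of these other myosins were below 0 (median -1.07) and 3 were called lower, as were 10.3% of probes. Myh6 differed by -1.53 (adjusted p = 0.0058), and by -1.24 (adjusted p = 0.11) without Het mouse 1, -0.36 with normexp and -0.58 in the authors' table. Non-muscle Myh14 had -0.79 (adjusted p = 0.029) and was not called. Myh10 differed by -1.23 (adjusted p = 0.032), and missed the call when WT mouse 2, WT mouse 3, Het mouse 1 or Het mouse 2 was left out and under 12 of 17 alternatives in all, with -0.30 under normexp. The third was Myh7b, named after its value was seen (-1.27, adjusted p = 0.033). Without the 2 arrays that stood apart, Myh6 alone was called (-1.25, adjusted p = 0.014).

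The thick filament partners, 15 myosin light chains, myosin-binding proteins, M-band proteins and chaperones, were all tested. In polysome RNA 0 were called higher and 1 lower in Het (median 0.20), beside 4.2% and 1.55% of all probes. Myl4, the embryonic and atrial light chain, was at the edge of the call (-1.002, SE 0.30, limma unadjusted p = 0.0069, adjusted p = 0.25) and missed it without WT mouse 3 (-0.77), Het mouse 1 (-0.92) or Het mouse 3 (-0.96), and under 9 of 19 alternatives in all. Mylk2, the skeletal myosin light chain kinase, had 0.46 (adjusted p = 0.36) and Unc45b, a myosin chaperone, 0.56 (adjusted p = 0.37). In whole muscle 0 of 15 were called, against 5.63% of all probes. On monosomes 1 was called higher and 2 lower in Het, beside 17.2% and 11.5% of all probes, all named after their values were seen: the fast light chain Myl1 (1.88, unadjusted p = 0.0013, adjusted p = 0.073), and the myosin-binding proteins Mybpc1 (-1.13, adjusted p = 0.097) and Mybph (-1.04, adjusted p = 0.12). Without WT monosome 2 Myl1 (1.08) and Mylpf (1.80) were called higher and 0 lower.

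On monosomes against whole muscle 4 of 15 partners were called lower and 0 higher, beside 10.3% and 7.17% of all probes (median -0.37, all probes -0.09). The M-band proteins Myom2 and Myom3 differed by -1.43 (adjusted p = 0.0025) and -1.57 (adjusted p = 0.0079), and Unc45b by -1.34 (adjusted p = 0.0048). Without Het mouse 1 the adjusted p of Myom2, Myom3 and Unc45b was 0.056, 0.063 and 0.071, and without Het mouse 3 that of Unc45b was 0.057. Unc45b also missed the call with normexp (-0.93), in the authors' table (-0.98) and on slide 1 alone (-1.24, adjusted p = 0.64), as did Myom2 (-1.46) and Myom3 (-0.96) on slide 1 alone. In all Unc45b missed it under 5 of 18 alternatives and Myom2 and Myom3 under 2 each. The fourth was the fast light chain Mylpf (-2.09, adjusted p = 0.011), named after its value was seen.

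Regulators of fibre type were compared between genotypes in polysome RNA, where 1 of 14 tested was called higher and 0 lower (median 0.12), beside 4.2% and 1.55% of all probes. Tbx15, a transcription factor of glycolytic fibres, was higher by 1.55 (SE 0.39, limma unadjusted p = 0.0023, adjusted p = 0.21), by 1.09 without WT polysome 2, and by 0.78 on slide 2 alone, where it was not called. Eya4, a transcriptional coactivator, had 0.98 (limma unadjusted p = 0.037, adjusted p = 0.31), and was called without WT mouse 3 (1.33) or Het mouse 1 (1.26). Ppargc1a, the PGC-1alpha coactivator of oxidative fibres, had 0.27 (adjusted p = 0.55). In whole muscle 1 of 14 was called lower and 0 higher, beside 3.64% and 1.99% of all probes. It was Sox6, a repressor of slow fibre genes (-1.98, limma unadjusted p = 0.022, adjusted p = 0.51). On monosomes 4 of 14 were called higher and 0 lower, Tbx15 (2.85), Ppargc1a (1.94), Eya4 (1.91) and Six4 (1.39), with adjusted p from 0.095 to 0.14, beside 17.2% of all probes called higher there. Without WT monosome 2, on which the mean level of the 14 was 7.01 against 8.12 on the other WT monosome array, 0 of 14 were called, and the 4 genes had 0.85, -0.11, 0.84 and 0.67. These calls outside polysome RNA were named after their values were seen. Red blood cell markers were lower in Het polysomes in 5 of 5 genes with 4 called, Hba-a2, Hba-a1, Alas2 and Hbb-b2 (median -1.26), beside 1.55% of all probes called lower there. Their mean level was 12.21 on WT polysome 2 against 10.96 and 10.86 on the other WT polysome arrays. Without that array 5 of 5 were below 0 with 2 called, Hba-a2 and Alas2 (median -0.93), and their part in the polysome values was not tested.

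Over the 16 arrays the members were only partly alike. Myh1 and Myh2, neighbours on the chromosome, correlated at r = 0.84 (0.72 without the 2 arrays that stood apart), Myh4 and the 3′ probe of Myh8 at 0.83 (0.51), and Myh4 and Myh1 at 0.48 (-0.19). Of 20250 tested probes those most like Myh7 were an unnamed probe (r = 0.98), the slow-type myosin Myh7b (r = 0.91) and Mybpc2, fast myosin-binding protein C (r = 0.82). Those most like Myh1 were Srsf7, Maff and Kpna2 (r = 0.91 to 0.92), and those most like Myh4 were Kcnq1ot1 (0.93), Spata1 and Zfp131. For Myh2 they were an unnamed probe (0.90), Ankmy2 and Pes1, for Myh3 Kpna2 (0.86), Tnfaip3 and Postn, and for the 3′ probe of Myh8 Dek (0.95), Prrg1 and Snx10. These values are descriptions over arrays that share mice and RNA kinds.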

How the data were processed

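RNA of 16 mouse gastrocnemius samples was hybridised to 1-colour (Cy3) Agilent arrays. Per the file headers, the authors' scanner software, Feature Extraction, gave a processed signal intensity for each spot, with background subtracted and trends within the array removed. The authors also deposited a table of log2 values that were quantile-normalized over all 16 arrays. Its values rank each array's probes as the unsubtracted median signal does.

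From the scanner intensities, spots with outlier marks were dropped, spots of a probe name were averaged, and log2 values were quantile-normalized over 12 arrays (whole muscle and polysome) or all 16 (monosome comparisons). Testing was limited to probes that all arrays of 1 or more groups showed well above background (19812 and 20250 of 55681 probe names). A further 49 lacked a value on some of the 12 arrays. Groups were compared with limma 3.58.1 (lmFit, eBayes, R 4.3.3), and p-values were adjusted across every tested probe by the Benjamini-Hochberg method. The fits were first tested on simulated data. Balances were compared by an exact permutation test. Figures were drawn with matplotlib 3.10.9.

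The probe with the highest mean stood for a gene. Of each described list of partners, other myosins and regulators, the 3 genes with the smallest p were named, and of like patterns the 3 highest correlations. The members and lists were chosen with earlier results of these data known. Each mouse gave all its RNA kinds by the design text, which pairs arrays of a mouse, and deviations of its whole-muscle and polysome arrays correlated at 0.058 to 0.49. The polysome to whole-muscle ratios used this pairing, and the main fits with monosome arrays did not. Nothing pairs mice across genotypes (-0.33 to 0.46). The alternatives were another scaling, background correction, filter, probe rule or input table, slide and brightness terms, single slides, blocks, the methods' t-test, and mice left out. The precision is limited by the number of arrays.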

Additional observations from a re-analysis of the deposited data

How the results depend on the processing

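For the 6 genes, 850 values were computed under alternatives to 48 results. Of these 741 kept direction and side of the call, 72 changed sign and 37 were newly called. For 21 results on other named genes, 318 of 377 kept both, 2 changed sign, 54 lost the call and 3 gained it. No cause of a change was tested. With 3 or 2 arrays a group, a whole-muscle difference of 1 lay inside the intervals of the adult isoforms, Myh3 was close to background, and the 3′ probe of Myh8 was near the top of the scale.

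In the authors' table the balance of Myh7 to Myh4 was 0.35 in whole muscle and -0.19 in polysomes, and that of Myh2 to Myh4 0.25 and -0.093. The same table gave genotype differences in whole muscle of -0.026 for Myh8, -0.21 for Myh4 and -0.12 for Myh1. Its loading was 0.99 for Myh4 and -0.069 for Myh3, its Het polysome to whole-muscle ratio 0.066 for Myh2, and its polysome to monosome difference 0.52 for Myh4. It called 4 genes in the monosome to whole-muscle comparison and 2 in the WT polysome to whole-muscle comparison.

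Scaling to the 75th percentile gave a loading of -0.90 for Myh8, a Het polysome to whole-muscle ratio of -0.26 for Myh1, a monosome genotype difference of 0.11 for Myh2 and polysome to monosome differences of -0.034 for Myh8 and 0.049 for Myh4. It called 1 gene in whole muscle (Myh8) and 2 between monosome and whole muscle. The median of all tested probes moved by less than 0.1 in every comparison under this scaling. Normexp background correction gave -0.0034 for Myh1 in whole muscle and a loading of -0.10 for Myh3, and called 1 gene between monosome and whole muscle. Keeping only probes well above background on all arrays also called 1 there (Myh7), as did the mean over all tested probes of a gene (1, Myh8). With that mean Myh8 was -0.34 in whole muscle and -0.0071 in monosome RNA between genotypes.

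With slide as a term the Het polysome to whole-muscle ratio of Myh1 was -0.011. With array brightness as a term, whole-muscle differences were 0.34 for Myh9 and 0.39 for Myh3, the polysome difference of Myh1 was -0.11, and loading was 0.52 for Myh4, -0.023 for Myh7 and -0.39 for Myh1. The Het polysome to whole-muscle ratio of Myh1 was then -0.44 and its polysome to monosome difference -0.014, and 1 gene (Myh3) was called in monosome RNA.

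Single slides leave 1 array in some groups, which is assumed to vary like the other groups, and set different mice against each other for loading. On slide 1 alone, genotype differences were -0.10 for Myh8 in whole muscle and 0.21 for Myh3 and -0.23 for Myh7 in polysomes, and loading was 0.15 for Myh4 and -1.53 for Myh7. Polysome to whole-muscle ratios were 0.77 for Myh7 in WT and 0.49 for Myh2 in Het, and the polysome to monosome difference of Myh8 was -0.11. On slide 2 alone, genotype differences were -0.62 for Myh7 in whole muscle, -0.21 for Ppargc1a and -0.10 for Myh1 in polysomes and 0.22 for Myh7 on monosomes, and loading was -1.34 for Myh3, -0.18 for Myh2 and -0.21 for Myh1. Polysome to whole-muscle ratios were 1.73 for Myh3 and 0.10 for Myh1 in WT, and 0.39 for Myh3, 0.20 for Myh7 and -0.11 for Myh1 in Het. The polysome to monosome difference of Myh4 was 0.19. Slide 2 alone called 2 genes in polysome RNA, 1 for loading, 3 between monosome and whole muscle and 2 between polysome and monosome.

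With the replicate number as a block across genotypes, 1 gene was called on monosomes (Myh3, -3.52, adjusted p = 0.16) and 0 in whole muscle and polysome RNA. With the mouse as a replicate block, Myh7 was called between monosome and whole muscle and between polysome and monosome, 1 gene each. Without the block, loading and both polysome to whole-muscle comparisons kept 0 called. The methods' t-test put 411, 429 and 1699 probes past the threshold in whole muscle, polysome RNA and loading, 0 of them members, and 0 after Benjamini-Hochberg adjustment. Without WT polysome 2 and WT monosome 2, an alternative chosen after seeing the data, polysome differences were -0.18 for Myh4 and -0.39 for Myh1, and Myh3 was the 1 gene called in polysome RNA, in monosome RNA and between polysome and monosome.

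Without a mouse that gave monosome RNA, 1 monosome array of its genotype is left and is assumed to vary like the other groups. Values of the brighter Myh3 probe that use the Het monosome arrays, which were not well above background for it, have no exact size. Calls of Myh3 by that probe in those comparisons rest on these arrays. With 1 mouse left out at a time, the number of called genes ranged from 0 to 1 in whole muscle, polysome RNA and polysome against monosome, and from 0 to 2 in monosome RNA and monosome against whole muscle. The balance of Myh7 to Myh4 ranged from -1.01 to 0.17 in whole muscle and from -0.0053 to 0.73 in polysomes. Whole-muscle differences ranged from -0.065 to 0.12 for Myh8, -2.06 to -0.67 for Myh3, -0.44 to 0.64 for Myh7, -0.053 to 0.39 for Myh2 and -0.10 to 0.24 for Myh1. Polysome differences ranged from -0.18 to 0.49 for Myh4, -2.65 to 0.22 for Myh3 and -0.39 to 0.87 for Myh1. Loading ranged from -0.64 to 0.27 for Myh4, -0.59 to 1.37 for Myh3, -0.084 to 0.86 for Myh7, -0.30 to 1.02 for Myh2 and -0.49 to 0.82 for Myh1. WT polysome to whole-muscle ratios ranged from -0.86 to 0.055 for Myh4, -1.74 to 0.22 for Myh3, -1.05 to 0.27 for Myh2 and -0.72 to 0.58 for Myh1, and the Het ratio of Myh2 from -0.13 to 0.024. Monosome differences between genotypes ranged from 0.17 to 1.11 for Myh8, 0.04 to 1.09 for Myh4, -3.52 to -2.25 for Myh3, -0.72 to 0.22 for Myh7 and -0.91 to 0.027 for Myh1. Polysome to monosome differences ranged from -0.15 to 0.012 for Myh4 and 0.85 to 1.91 for Myh3.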
